A study of Mus musculus with 2 samples.

Results

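The potassium channel genes are described here in 2 lines of mouse mesenchymal stem cells, one without Dicer and one with it. The family was taken as every gene symbol of the authors' deposited table that starts with Kcn, which gave 95 of 23227 symbols. Of these, 14 had a mean over both genotypes above 20 normalised reads, 49 were detected below that level, and 32 had no read. Members were chosen by symbol, and those followed in detail were selected on their mean level over both lines. The levels and ratios of the family were already known when it was chosen, so every count over the members is a description.

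The knockout line (KO) carries the genotype Dicer -/-, and the wild-type line (WT) carries Dicer f/f, that is, floxed alleles that still encode the enzyme. Both are immortalised and each was grown from 1 clone, so a difference between the clones and a difference made by Dicer cannot be told apart. They derive from adult mesenchymal stem cells, were labelled fibroblasts, and were grown in Alpha-MEM with fetal bovine serum and lysed before confluence. PolyA-selected RNA was sequenced as paired reads. The labels give 1 sample per genotype, and how the alleles were removed is not given in the sources used here.

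Potassium channels let potassium ions leave or enter the cell along their gradient, and so set the resting membrane potential and the driving force for calcium entry. Voltage-gated channels open on depolarisation, calcium- and sodium-activated channels open on ions inside the cell, two-pore channels carry a steady leak, and inward rectifiers hold the potential near rest. In fibroblasts and mesenchymal stem cells they are known for roles in cell volume, migration and the cell cycle. Dicer cuts precursors into mature microRNAs, which pair through a seed of a few bases with the 3′ untranslated regions (UTRs) of messenger RNAs and lower their level.

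Each deposited mean could be resolved into whole reads of 2 libraries per genotype. The KO libraries held 15718369 and 14969532 reads in genes, and the WT libraries held 15369250 and 14135422. They are called the deeper and the shallower library, and all values are reads divided by the size factor of the library (normalised reads), deeper library first. The sources do not say whether libraries of 1 genotype came from separate cultures, so their spread may be technical. Dicer1 itself had 573 and 557 normalised reads in KO, against 804 and 943 in WT. The counts per gene do not separate the deleted part from the rest of the transcript. Of 11 mesenchymal and fibroblast markers, 10 passed a mean of 20 and Thy1 had no read, and their sums were 104552 and 127645 in KO, against 175101 and 214754 in WT. Col1a1 and Col1a2 weighed heavily in these sums and were lower, with ratios of 0.432 and 0.486. The other 8 were not called. Pdgfrb, Ly6a, Cd44 and Nt5e had ratios from 1.06 to 1.41, and Eng, Itgb1, Pdgfra and Vim had ratios from 0.689 to 0.851. Markers of smooth muscle and myofibroblasts summed to 687 and 783 in KO, against 35733 and 62049 in WT, with Acta2, Tagln and Cnn1 lower. Des had means of 47.6 in KO and 34.2 in WT and was not called. Myh11, with means of 4.67 in KO and 1.04 in WT, fell below a mean of 20 and could not be called. The 6 haematopoietic markers summed to 197 and 175 in KO, against 149 and 141 in WT, and Cd14 alone passed (180 in KO, 123 in WT). Ptprc had mean levels of 1.46 in KO and 0.561 in WT, and Cd34 of 1.42 in KO and 18.3 in WT. Neuronal marker sums were 49.7 and 45.8 in KO, against 23.1 and 50.4 in WT, with Rbfox3 at 0, and glial sums were 84.6 and 62.7 in KO, against 62.7 and 53.8 in WT. Skeletal and cardiac muscle markers summed to 14.7 and 48.8 in KO, against 6.75 and 31.4 in WT. No endothelial or epithelial marker passed (endothelial sums 13.8 and 18.9 in KO, 9.64 and 11.2 in WT; epithelial sums 1.84 and 2.99 in KO, 2.89 and 5.61 in WT). The part that any of these played in the channel levels was not tested, and in bulk RNA fewer expressing cells and less RNA per cell cannot be told apart.

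Most potassium channel genes were silent or nearly so in both lines. With no read were 33.7% of the Kcn symbols, and 14.7% reached a mean of 20, against 25.5% and 50.4% of all symbols. The 14 members above the threshold had a median level of 76.2 normalised reads, against 553 over all 11710 genes tested. By genotype, 9 of the 95 reached 20 in both lines, 4 in KO alone and 4 in WT alone. Voltage-gated pore subunits were the largest class with 40 symbols, of which 19 had no read and 4 passed. Of 14 two-pore leak channels 7 had no read and 3 passed, and of 12 calcium- and sodium-activated channel genes 1 had no read and 3 passed. Among the 15 inward rectifiers 1 passed, and among the 13 accessory subunits 2 passed. Kcnma1, the pore of the large-conductance BK channel, was nearly silent, with mean levels of 0.957 in KO and 2.49 in WT.

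**Figure D1:**
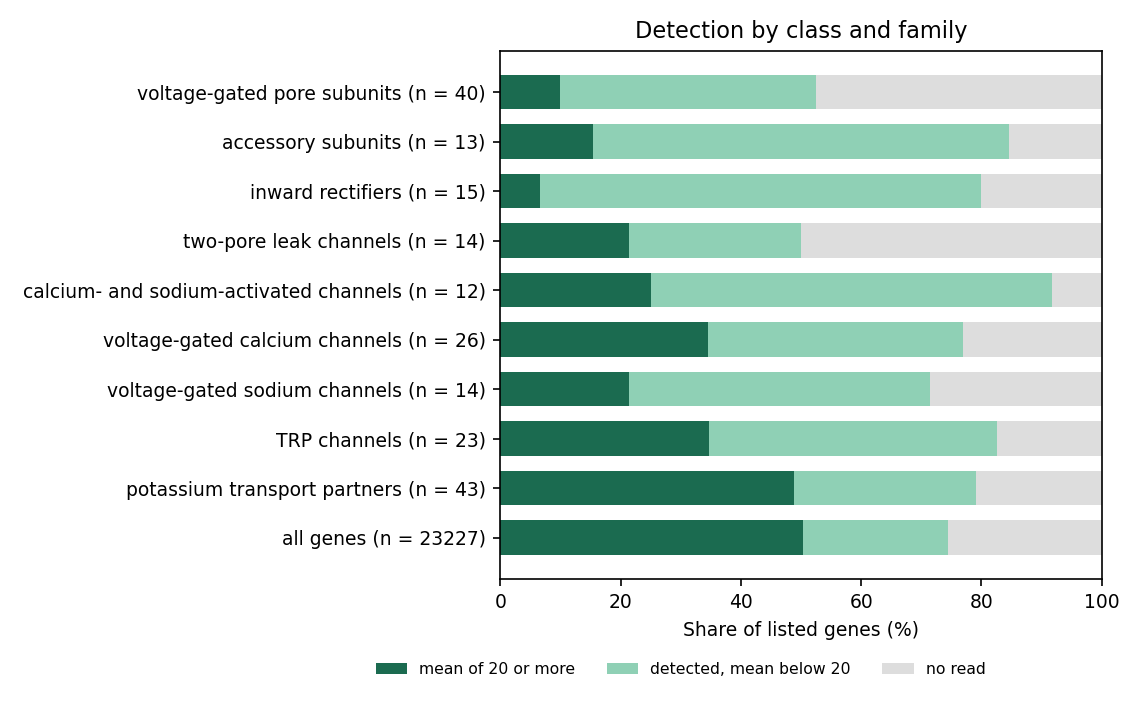
Detection of the potassium channel classes, of other channel and transport lists and of all genes; bars give the share of the listed genes (%) with a mean of 20 or more normalised reads, with a lower mean above 0, and with no read. The share of 20 or more was 14.7% over all Kcn symbols and 50.4% over all genes.

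A member above the threshold counted as higher in KO at a KO over WT ratio of 2 or more, and as lower at a ratio of 0.5 or less, provided that the 95% exact (Clopper-Pearson) counting interval did not reach 1. Of the 14, 5 were higher, 3 were lower and 6 were neither. Kcnn4, Kcnh2 and Kcnf1, all higher, had WT means below 20 (18.8, 3.86 and 12.3). Kcnh1 and Kcnk2, both lower, had KO means below 20 (0.498 and 1.42). These genes passed the threshold only through the line where they were high, so their calls are not independent of the filter. Among the called members, Kcnt2, Kcnd1 and Kcnn1 reached 20 in both lines. Over all tested genes 8.92% were higher and 8.56% were lower. Among the 3387 tested genes with means in the range of the members, between 23.2 and 252, 14.0% were higher and 16.4% were lower. The median log2 ratio of the 14 was 0.02, against -0.01 over all tested genes, and -0.32 over the 13 protein-coding members. All intervals cover counting error only.

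The authors' deposited table, at an adjusted p of 0.1, called 2 Kcn genes higher (Kcnn4 and Kcne4) and 4 lower (Kcnh1, Kcnk2, Kcnn1 and Kcnip3), against 3.91% and 3.96% of the 17303 genes with a p-value. For 7 of the 14 members the lower KO library exceeded the higher WT library, and for 5 the reverse held. Over all tested genes those shares were 30.4% and 28.8%. The libraries of 1 genotype were themselves often apart: 6 of the 14 members differed at least 2-fold between the KO libraries and 4 did between the WT libraries. At the members' levels 16.6% of genes differed that much in KO and 19.1% in WT. The deeper library was above the shallower one in both genotypes for 10 of the 14 members, against 44.7% of genes in their range. What set the libraries apart was not tested. By limma, with the recovered libraries as replicates and an adjusted p of 0.05, Kcnn4 was higher and Kcnh1 and Kcnk2 were lower, against 3.55% and 3.65% of all tested genes. With libraries of like depth rank paired as a block, Kcnn4, Kcnt2, Kcnh2 and Kcnf1 were higher and Kcnh1, Kcnk2, Kcnn1 and Kcnj2 were lower, against 11.0% and 11.4%. Without the block, these p-values measure only the spread between libraries of 1 labelled sample each, which may be technical. With the block, they measure only the spread left after a pairing that no label gives.

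**Figure D2:**
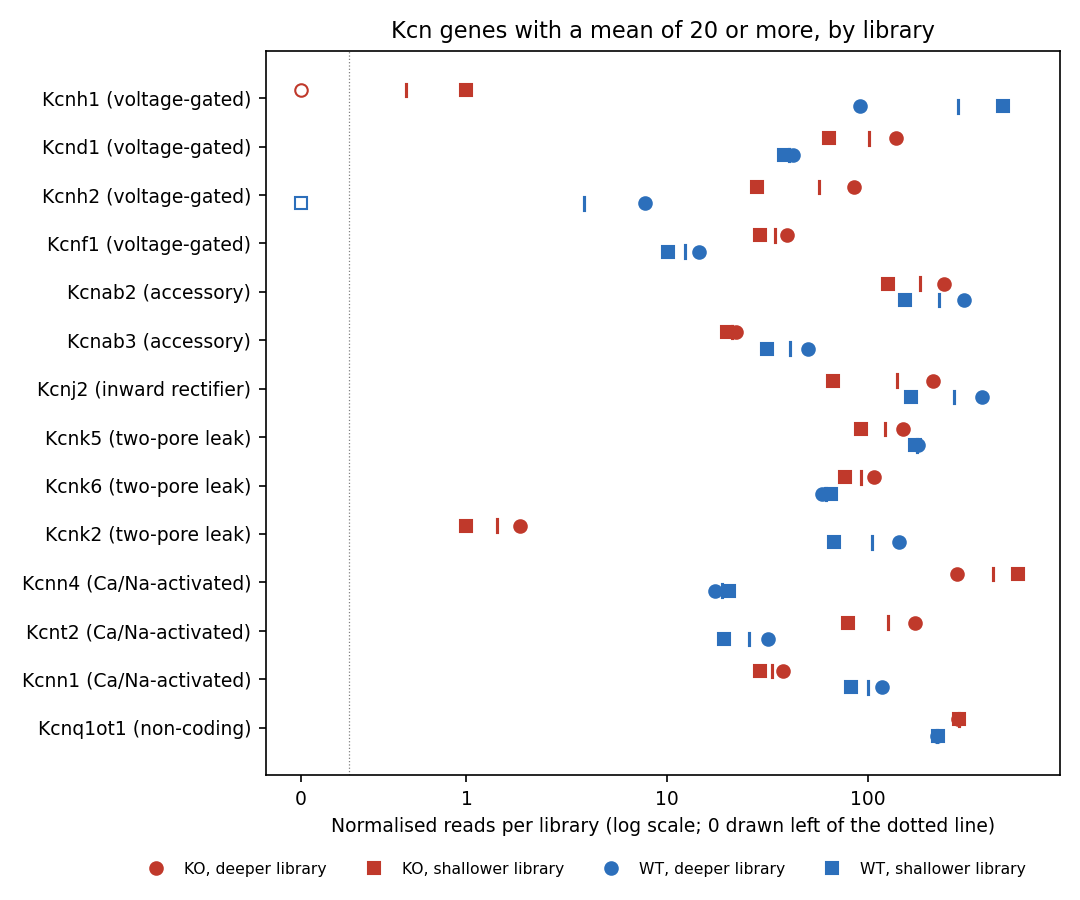
Normalised reads (log scale) of the 14 members above the threshold, with KO in red above WT in blue; circles are the deeper and squares the shallower library, ticks are the genotype means, and hollow symbols left of the dotted line are 0. The KO and WT symbols overlap for Kcnab2 and Kcnj2 and are apart for the other 12.

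All 3 tested calcium- and sodium-activated channel genes were called, 2 higher and 1 lower. Over all tested genes 17.5% were called, and 30.4% of those in the members' range of levels. Kcnn4, which passed the threshold only through KO, had the highest ratio of the 14 members with all libraries used. Kcnn4 encodes the intermediate-conductance calcium-activated channel KCa3.1, which is opened through calmodulin and is known in proliferating fibroblasts and lymphocytes. It had 278 and 556 normalised reads in KO (302 and 559 reads), against 17.4 and 20.2 in WT (18 and 18 reads). Both KO libraries stood far above both WT libraries, although the KO libraries were 2.00-fold apart. The mean was 22.2-fold higher in KO (interval 15.9 to 31.9), with an adjusted p of 0.00175 in the authors' deposited table. Without the shallower KO library the ratio was 14.8, below that of Kcnh2 (22.2) in the same libraries. Per kilobase of its longest annotated transcript, Kcnn4 was the highest of all members in KO, with a mean level of 210 normalised reads per kb in KO and 9.43 in WT.

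Kcnt2, a sodium-activated channel also called Slick, had 172 and 79.6 normalised reads in KO, against 31.8 and 19.1 in WT. The lower KO library was still above the higher WT library. Its mean was 4.95-fold higher in KO (interval 3.65 to 6.83), and the authors' deposited table gave an adjusted p of 0.176. The ratio dropped to 3.13 when the deeper KO library was left out. An annotated transcript on the opposite strand, 4930590L20Rik, shares exon bases with Kcnt2 and had no read in either line. Opposite-strand transcripts also share 604 exon bases with Kcnk2 and 132 with Kcnn1, and no values for them were analysed here.

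Kcnn1 encodes SK1, a small-conductance calcium-activated channel of the same family as Kcnn4, and moved the other way. It had 37.7 and 28.9 normalised reads in KO, against 118 and 81.8 in WT. The groups did not overlap, and libraries of 1 genotype were within 1.44-fold of each other. The ratio was 0.334 (interval 0.250 to 0.441), with an adjusted p of 0.0687 in the authors' deposited table. By limma over the recovered libraries the adjusted p was 0.0569, short of 0.05. The other small-conductance genes, Kcnn2 and Kcnn3, had means below 3 normalised reads in both lines.

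Among voltage-gated pore subunits above the threshold, Kcnh1 was lower and Kcnh2, Kcnd1 and Kcnf1 were higher. The shares called either way were 17.5% of all tested genes and 30.4% of those in the members' range of levels. Kcnh1 encodes EAG1, a channel known from brain, from human myoblasts and from tumour cells. It had 0 and 0.995 normalised reads in KO, which is 1 read in all, against 91.6 and 470 in WT. The KO line was next to silent, while the WT libraries were 5.13-fold apart and both high. The ratio was 0.00177 (interval 4.48e-05 to 0.00992), or 564-fold lower, with an adjusted p of 0.0669 in the authors' deposited table. Its size rested on the shallower WT library: without it Kcnh1 was 184-fold lower. With the deeper WT library left out the ratio was 0.00106, and with the deeper KO library left out 0.00355. Leaving out the shallower KO library left 0 KO reads, and the interval then ended at 0.0128.

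Kcnh2, of the same family, encodes ERG1, which carries the rapid delayed rectifier current of heart muscle. It had 85.5 and 27.9 normalised reads in KO, against 7.71 and 0 in WT (121 reads in KO and 8 in WT). Both KO libraries were above both WT libraries, with a wide spread in each line. The ratio was 14.7 (interval 7.23 to 34.8), with an adjusted p of 0.224 in the authors' deposited table. It was 7.23 when the deeper KO library was left out, 22.2 when the shallower KO library was, and 7.35 when the shallower WT library was. Leaving out the deeper WT library left 0 WT reads, and the interval then began at 13.8. The related genes Kcnh3 and Kcnh4 had means below 5 normalised reads in both lines.

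Kcnd1 encodes Kv4.1, a pore subunit of rapidly inactivating A-type currents. It had 138 and 63.7 normalised reads in KO, against 42.4 and 38.1 in WT. The KO libraries lay above the WT libraries, but the KO libraries were 2.17-fold apart. The ratio was 2.50 (interval 1.92 to 3.29), and the adjusted p in the authors' deposited table was 0.504. The shallower KO library set alone against both WT libraries gave a ratio of 1.58, which no longer met the 2-fold limit. Among the Kv4 channel-interacting proteins, Kcnip4 had means of 13.4 in KO and 18.8 in WT, Kcnip3 had 2.30 in KO and 24.5 in WT, and the mean of Kcnip2 was below 1 in both lines.

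Kcnf1 encodes Kv5.1, a subunit that forms no channel of its own and modifies Kv2 channels. It was the member nearest above the threshold, with a mean of 23.2 over both lines. It had 39.6 and 28.9 normalised reads in KO, against 14.5 and 10.1 in WT, with no overlap. The ratio was 2.79 (interval 1.73 to 4.63), and the authors' deposited table gave an adjusted p of 0.470.

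**Figure D3:**
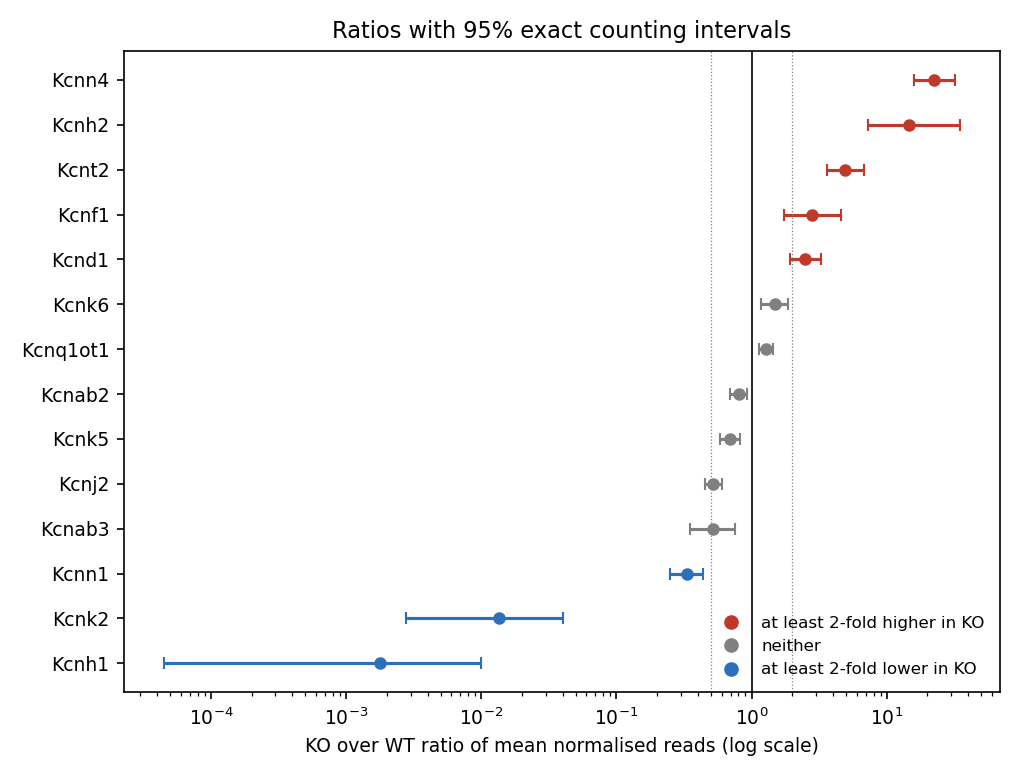
KO over WT ratio of mean normalised reads (log scale) of the 14 members with 95% exact counting intervals as bars; dotted lines mark ratios of 0.5 and 2, the solid line 1, and colours mark the call. Ratios ran from 0.00177 for Kcnh1 to 22.2 for Kcnn4.

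Among the 3 two-pore leak channels above the threshold, 1 was called, against 17.5% of all tested genes and 30.4% in the members' range of levels. Kcnk2 encodes TREK-1, a leak channel opened by membrane stretch, heat and fatty acids. It had 1.84 and 0.995 normalised reads in KO, which is 3 reads in all, against 142 and 67.3 in WT. The KO line was again next to silent, and both WT libraries were well above it. The ratio was 0.0136 (interval 0.00277 to 0.0402), or 73.7-fold lower, with an adjusted p of 4.94e-04 in the authors' deposited table. Set against the shallower WT library alone, Kcnk2 was 47.5-fold lower. Kcnk2 was thus lower in KO than in WT under each library left out, at a depth where the KO level rests on 3 reads.

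The other leak channels above the threshold differed less. Kcnk5, the alkaline-activated channel TASK-2, had 150 and 92.5 normalised reads in KO, against 177 and 172 in WT. Kcnk6, or TWIK-2, had 107 and 76.6 normalised reads in KO, against 58.8 and 65.0 in WT. Neither overlapped between the lines, yet the ratios of 0.695 (interval 0.588 to 0.820) for Kcnk5 and 1.48 (interval 1.17 to 1.88) for Kcnk6 stayed inside the 2-fold limits. Their adjusted p-values in the authors' deposited table were 0.808 and 0.839.

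Kcnk2 and Kcnh1, which had the lowest ratios of the 14 members above the threshold, lie on the same chromosome, number 1, with 19 tested genes between them in the RefSeq annotation. Of these, 18 were neither higher nor lower, Atf3 was higher (ratio 2.08), and none was lower. Over all tested genes 8.92% were higher and 8.56% were lower. Ratios ran from 0.560 (Nenf) to 2.08 with a median of 1.14, and the lowest KO mean among them was 94.6 normalised reads. Genes with a mean below 20 were left out, so a gene silent in KO and low in WT could not appear here.

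The single inward rectifier above the threshold was Kcnj2, which encodes Kir2.1, a channel that holds the resting potential of muscle and other cells. It had 212 and 66.7 normalised reads in KO, against 371 and 164 in WT, so the ranges overlapped and each line was more than 2-fold apart within itself. The ratio was 0.520 (interval 0.450 to 0.601), just short of the limit, with an adjusted p of 0.873 in the authors' deposited table. It was 0.249 when the deeper KO library was left out and 0.375 when the shallower WT library was, both past the limit. With the shallower KO library left out it was 0.791, and with the deeper WT library left out 0.850. Both pairs of like depth rank gave a lower KO level, with ratios of 0.570 for the deeper and 0.407 for the shallower libraries. Limma gave an adjusted p of 0.0398 with that pairing as a block and of 0.416 without it. No label gives that pairing. The other 11 detected inward rectifiers had means below 10 normalised reads.

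Accessory subunits of voltage-gated channels gave no call above the threshold, where 2 were tested. That count stands beside 17.5% of all tested genes and 30.4% of those in the members' range of levels. Kcnab2 encodes a beta subunit built like an oxidoreductase, which binds Kv1 channels, and was among the 3 most abundant members together with Kcnq1ot1 and Kcnn4. It had 238 and 125 normalised reads in KO, against 301 and 152 in WT, with overlapping ranges. The ratio was 0.802 (interval 0.698 to 0.921), with an adjusted p of 1 in the authors' deposited table. Its direction was not stable: the ratio was 1.05 when the shallower KO library was left out and 1.19 when the deeper WT library was. Kcnab3, a related beta subunit, had 22.1 and 19.9 normalised reads in KO, against 50.1 and 31.4 in WT. Its ratio was 0.515 (interval 0.348 to 0.753), with an adjusted p of 0.701 in the authors' deposited table, and it passed the limit with the deeper KO library (0.488) or the shallower WT library (0.419) left out.

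Below the threshold, Kcne4 was the nearest member with a mean of 16.9. It encodes a small transmembrane subunit that damps Kv1 and Kv7 channels. It had 29.4 and 31.8 normalised reads in KO, against 2.89 and 3.36 in WT, with the libraries of each line close together. The WT level rests on 3 and 3 reads. The ratio was 9.80 (interval 4.26 to 27.7), with an adjusted p of 0.0408 in the authors' deposited table. Kcnip3, a calcium-binding protein also known as DREAM or calsenilin, had 4.60 and 0 normalised reads in KO, against 29.9 and 19.1 in WT. Its ratio was 0.0940 (interval 0.0292 to 0.235), with an adjusted p of 0.0751 in the authors' deposited table. With the shallower KO library left out the ratio was 0.188, and with the deeper one left out, which leaves 0 KO reads, the interval ended at 0.153. Kcng1, named after its values were seen, encodes a silent modifier of Kv2 channels and had 0 reads in KO, against 7.71 and 43.7 normalised reads in WT, and its adjusted p in the authors' deposited table was 0.269.

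Kcnq1ot1 is the only member that encodes no protein. It is a long imprinted RNA transcribed from the paternal allele within Kcnq1, in the antisense direction, and known for silencing neighbouring genes. It was the most even of the 14 between libraries, with 281 and 285 normalised reads in KO, against 221 and 222 in WT. The KO libraries lay above the WT libraries by a ratio of 1.28 (interval 1.13 to 1.45), inside the 2-fold limit, with an adjusted p of 0.956 in the authors' deposited table. Its annotated length of 93092 bases put it low per length, with means of 3.04 normalised reads per kb in KO and 2.38 in WT. Kcnq1, with which it shares 121 exon bases on the opposite strand, had means of 0.498 in KO and 1.60 in WT. Stranded counting is not stated for these data, so reads of that stretch cannot be assigned to either gene.

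Per length, Kcnn4 led in both KO libraries, with 140 and 280 normalised reads per kb. Next in the KO means came Kcnab2 (46.4), Kcnk5 (35.7) and Kcnj2 (25.6), but in the shallower KO library Kcnj2 (12.2) was below Kcnk6 (18.8) and Kcnt2 (13.7). In the WT means the order was Kcnab2 (57.8), Kcnk5 (51.4), Kcnj2 (49.1) and Kcnh1 (38.8). It did not hold in each WT library. Kcnh1 had 12.6 normalised reads per kb in the deeper WT library and led the shallower one with 64.9, where Kcnk5 had 50.6, Kcnab2 38.9 and Kcnj2 30.1.

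Summed over all 95 symbols, the family had 1890 and 1574 normalised reads in KO, against 1824 and 1667 in WT. These ranges overlapped, while the makeup of the sum differed. Calcium- and sodium-activated channels made up 26.3% and 42.5% of the family's reads in KO, against 9.99% and 7.67% in WT. Most of that class in KO was Kcnn4. Voltage-gated pore subunits made up 15.6% and 9.61% in KO, against 10.8% and 34.8% in WT, and the high WT library was the one with 470 normalised reads of Kcnh1. Two-pore channels made up 14.2% and 11.1% in KO, against 21.6% and 18.8% in WT. Inward rectifiers made up 12.2% and 6.19% in KO, against 22.6% and 11.2% in WT, so their ranges overlapped.

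**Figure D4:**
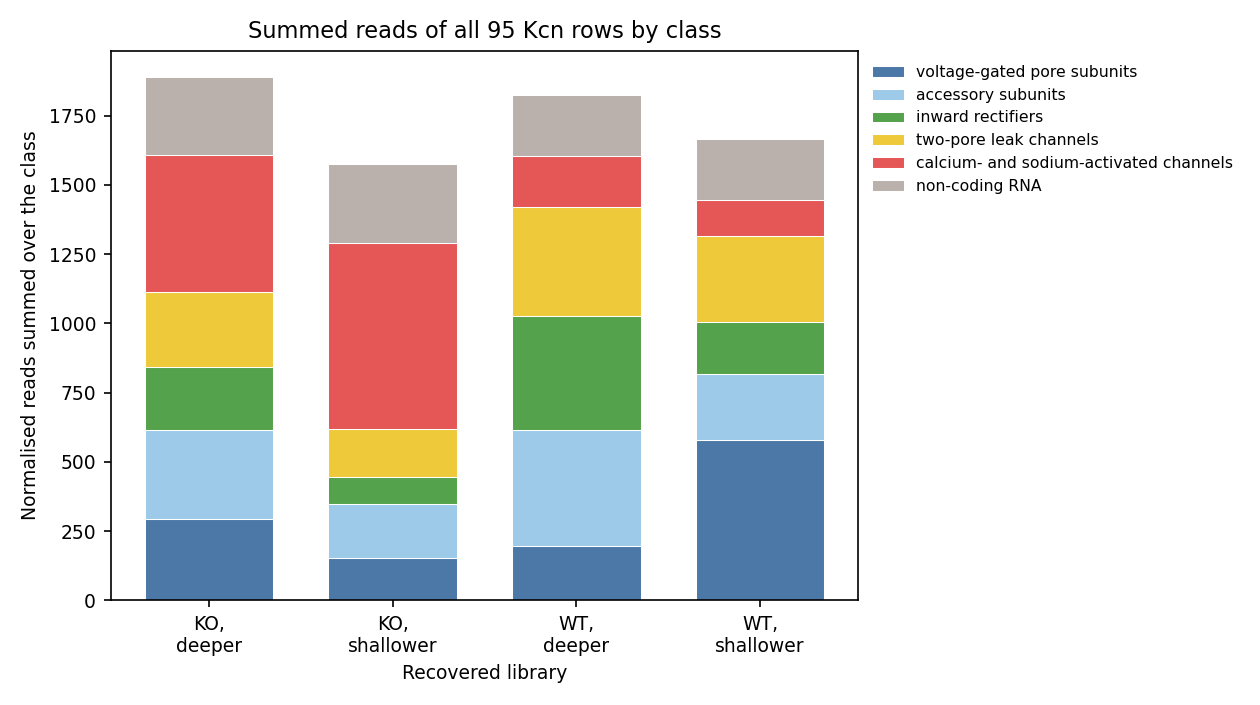
Normalised reads summed over each class of Kcn genes in each of the 4 recovered libraries, KO left of WT. The totals of 1890 and 1574 in KO and of 1824 and 1667 in WT overlap, and the red segment of calcium- and sodium-activated channels is larger in both KO libraries than in both WT libraries.

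Since Dicer makes mature microRNAs, the 3′ UTRs of the 13 protein-coding members above the threshold were searched for 7-base sites pairing with seed positions 2 to 8 of 13 microRNA families. All 13 held a site of at least 1 family, with a median of 3 families per gene, against a median of 1 and 27.6% without any over 11315 tested genes. Their UTRs were also longer, with a median of 2267 bases against 1199. The longest annotated UTR of each gene was used. A few further families were planned but had no mature sequence in the source used, and were not searched. The miR-16 site was found in 7 of the 13, against 25.2% of all UTRs searched, and the miR-19b site in 5 of the 13, against 13.8%. Of the 13 families searched, these 2 had sites in the most members. The let-7 site was found in Kcnk6 alone of the 13, and the miR-17 site in none, against 10.6% and 15.0% of all. The mature miR-16-5p and miR-19b-3p are given to show their seeds (bases 2 to 8, in capitals), from RefSeq on GRCm38.p6. All sites of these 2 families in members that were called follow, from GENCODE M21 on GRCm38, with the 7 pairing bases in capitals:
miR-16-5p: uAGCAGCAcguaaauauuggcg
miR-19b-3p: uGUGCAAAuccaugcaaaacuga
Kcnn4, miR-16 site: gaagccctttctgctgTGCTGCTgttcagg
Kcnn4, further miR-16 site: agaagagggtacagggTGCTGCTcaccaat
Kcnf1, miR-16 site: gggcacgacactatagTGCTGCTcttggcc
Kcnf1, further miR-16 site: atccaaagtatcttttTGCTGCTcgttcag
Kcnn1, miR-16 site: gcaggctttattccccTGCTGCTgtgggaa
Kcnh1, miR-16 site: cacctcaaggagtcccTGCTGCTtcaacag
Kcnh1, further miR-16 site: atgtccctgtctttgtTGCTGCTtcatgta
Kcnt2, miR-19b site: tctgaagtttagtattTTTGCACtatgaca
Kcnd1, miR-19b site: tctctgctgtaactccTTTGCACactgtct
Kcnf1, miR-19b site: tggtggaccatctgttTTTGCACaacccat
Kcnk2, miR-19b site: tgggatcactgtgagtTTTGCACatggaga

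The same sites stood in genes that were higher and in genes that were lower in KO. The miR-16 site TGCTGCT was in Kcnn4 and Kcnf1, both higher, and in Kcnh1 and Kcnn1, both lower. The miR-19b site TTTGCAC was in Kcnt2, Kcnd1 and Kcnf1, all higher, and in Kcnk2, which was lower. Kcnh2 held a site of 1 family, miR-34a, in a UTR of 411 bases, whereas Kcnh1 held 7 sites of 4 families in a UTR of 4038 bases. MicroRNA levels were not measured in these libraries, so a match describes the letters of the UTR and not a working site.

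Other genes of ion transport, listed as potassium transport partners and taken from pumps, exchangers, cotransporters and channel partners, numbered 43. Of these 21 were tested, and 5 were higher, 2 were lower and 14 were neither, beside the shares of 8.92% and 8.56% over all tested genes. Atp1b1, a beta subunit of the sodium-potassium pump, had 1015 and 1066 normalised reads in KO, against 162 and 202 in WT. Both KO libraries were far above both WT libraries. The ratio was 5.72 (interval 5.11 to 6.43), with an adjusted p of 1.39e-08 in the authors' deposited table. The cation exchangers Slc24a3 and Slc24a6 were higher by ratios of 2.54 and 4.63, with adjusted p-values of 0.00881 and 0.0192 in the authors' deposited table. The kinase Wnk4 had 285 and 93.5 normalised reads in KO, against 65.5 and 29.1 in WT, and was also higher by the ratio rule, with an adjusted p of 0.587 in the authors' deposited table. Stk39, the kinase that activates sodium-potassium-chloride cotransport, had 0.920 and 0.995 normalised reads in KO, against 276 and 444 in WT. It was 376-fold lower, with an adjusted p of 9.10e-13 in the authors' deposited table, and passed the threshold only through WT. The pump regulator Fxyd5 had 79.1 and 372 in KO, against 366 and 843 in WT, overlapping ranges with a ratio of 0.373 and an adjusted p of 0.669 in the authors' deposited table.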

How the data were processed

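PolyA RNA of 1 labelled KO and 1 labelled WT sample was compared. The authors deposited 1 table with, per gene, the mean read count after size-factor division in each genotype (a signal), their ratio, its log2 value, and p-values with adjusted p-values. Per the submitters' processing notes, TopHat 1.4.0, DESeq 1.10.1 and mm9 were used, with no role or order given. The read counter was not given in the sources used here, nor was the annotation. The comparison's title names WT before KO, so condition A was taken to be WT, and every direction rests on that.

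Reads and size factors of 2 libraries per genotype were solved from the deposited means, with 1 solution for 100% of genes above 0. The labels give 1 sample per genotype, and the ratio rule uses the means alone; the limma alternatives treat the recovered libraries as replicates. Genes with a mean of at least 20 were tested. Ratios have 95% Clopper-Pearson intervals, and genotypes with 0 reads are given by the bound of that interval nearest 1. Medians of log2 ratios used a floor of 3 reads in place of 0. The authors' p-values were copied and read at 0.1. As alternatives, limma 3.58.1 on log2(normalised reads + 1) over all 11710 genes was read at an adjusted p of 0.05. Other filters, ratio limits, scaling by total reads and leaving out each library were also tried.

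Named genes were the members above 20 passing either call rule, the 3 with the highest mean, the nearest above and below 20, members alone in their class, partner genes past the ratio rule, and examples. A few genes that this rule or the gene order would name are not reported here. The members and all lists were chosen with earlier results of these data known. All 95 members matched GENCODE M21 (GRCm38), which was used for lengths and UTR sequence, not for coordinates. Gene order was taken from RefSeq.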

Additional observations from a re-analysis of the deposited data

How the results depend on the processing

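Against 5 higher and 3 lower members, dropping the level filter gave 8 and 7, a filter of 50 gave 3 and 3, and a ratio limit of 1.5 gave 5 and 5. Shares of all genes were not counted for other filters, ratio limits, scaling or library subsets. Those counts therefore describe the members alone. Scaling by total reads changed no call. The authors' adjusted p gave 1 and 3, against 651 and 625 of all 11710 tested genes. Leaving out 1 library gave 4 to 5 higher and 3 to 5 lower: Kcnd1 was lost without the deeper KO library, and Kcnj2 and Kcnab3 became lower without the deeper KO or the shallower WT library. The Kcnab2 ratio of 0.802 ran from 0.553 to 1.19 with 1 library left out, and was above 1 in the absence of the shallower KO library (1.05) or of the deeper WT library (1.19). The median log2 ratio of 0.02 was -0.32 with a filter of 50 and 0.075 with scaling by total reads. It ran from -0.27 to 0.30 with 1 library left out. With no filter the median was -0.48, but there a floor of 3 reads replaced 0 reads in a genotype. That floor reversed the sign of genes with fewer reads than the floor in the other genotype. Kcna1, with 0 reads in KO and 1 in WT, got a log2 of 1.57. Kcna7, with 2 reads in KO and 0 in WT, got -0.70. The unfiltered median is therefore no plain KO over WT ratio. What moved the median was not tested. The deeper libraries alone gave 5 higher and 4 lower and the shallower ones 4 and 4, a comparison chosen after seeing the data. By limma 1 was higher and 2 were lower, against 416 and 427 of all 11710 tested genes. No paired analysis was possible from the labels because they give no replicate numbers; with depth rank as a replicate block, a pairing taken from the totals alone, limma gave 4 higher and 4 lower (Kcnj2 added), against 1288 and 1333 of all. Depth limits the KO levels of Kcng1, Kcnh1, Kcnk2 and Kcnip3, which rest on 0, 1, 3 and 5 reads. It also limits the WT levels of Kcne4 and Kcnh2, which rest on 6 and 8 reads.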

Other observations

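Other cation channel families are given for setting. Of 26 voltage-gated calcium channel genes 9 were tested, with 1 higher and 4 lower in KO. Of 14 voltage-gated sodium channel genes 3 were tested, with 1 higher and 2 lower, and of 23 TRP channel genes 8 were tested, with 1 higher and 1 lower. Among the tested genes, 3 for calcium, 1 for sodium and 1 for TRP channels reached 20 in WT alone, and none in KO alone. Those genes passed the threshold only through WT, so their calls are not independent of the filter. Over all 11710 tested genes 8.92% were higher and 8.56% were lower, and counts from so few genes are a description only. No difference between these families and the potassium channel genes was tested.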
